A study of Mus musculus with 24 samples.

Results

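Podocyte genes were followed here as a set of 8: Nphs1, Podxl, Ptpro, Synpo, Plce1, Wt1, Cdkn1c and Vegfa. They were taken by gene symbol from a named list that was drawn up with earlier results of these data known, and all 8 were found among the 16921 genes of the kidney tables. All 8 passed the filter on low counts that left 15165 genes for testing.

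Podocytes are the epithelial cells that wrap the capillaries of the glomerulus, the filtering unit of the kidney. Their interlocking foot processes are bridged by the slit diaphragm, a cell junction built around nephrin, and are held open by a contractile actin skeleton and a negatively charged surface coat. The cells hardly divide in the adult, and loss of their junction or adhesion proteins lets plasma protein leak into urine. Podocytes are a small share of the cells of kidney cortex, so their transcripts were read here against a large background of tubule RNA.

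The mice were males, 22 months old, with a C57BL6/J strain background, and were either wild type or FGF21 KO, which lack the hormone FGF21. Both genotypes received feed in which casein supplied the protein, at 20% (normal protein, NP) or 5% (low protein, LP), from 3 months of age onward and without restriction. The 4 groups, WT_NP, WT_LP, KO_NP and KO_LP, held 6 libraries each, 1 per mouse, and the libraries count tags at the 3' end of transcripts in kidney cortex. The series asked how the low protein diet changes the kidney transcriptome with and without FGF21. The labels do not say how the KO allele was made, and the deleted gene itself is not analysed here, so the genotype labels were not checked against it.

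Library totals ran from 8469102 to 21063652 counts. The mean total was 16542445 counts in WT_NP, 16605616 in WT_LP, 13550873 in KO_NP and 12293679 in KO_LP. The lowest count of any of the 8 genes in any library was 28, for Nphs1 in KO_LP 1. Levels are given in CPM, the usual count rate relative to the scaled library size, and are compared across groups within a gene, not between genes. As a check of the tissue label, the proximal tubule markers had a mean log2 CPM between 8.63 and 9.14 in the 4 groups. The index numbers follow the groups, so a batch with the same order cannot be told apart from diet and genotype. In bulk tissue, fewer podocytes and less RNA per podocyte cannot be told apart either.

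The genes are protein coding, with positions in GRCm38 from GENCODE M21. Nphs1 (ENSMUSG00000006649) is at chr7:30458315-30487223 on the plus strand, Podxl (ENSMUSG00000025608) at chr6:31519488-31563981 on the minus strand, and Ptpro (ENSMUSG00000030223) at chr6:137252319-137463233 on the plus strand. Plce1 (ENSMUSG00000024998) is at chr19:38481109-38785030 on the plus strand, and Wt1 (ENSMUSG00000016458) at chr2:105126529-105173616 on the plus strand. Cdkn1c (ENSMUSG00000037664) is at chr7:143458339-143461050 and Vegfa (ENSMUSG00000023951) at chr17:46016993-46032369, both on the minus strand. Nphs1 and Cdkn1c share chromosome 7 with Fgf21, at 15.1 and 97.8 Mb from it.

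Promoter sequence was read from RefSeq (GRCm38.p6) for the 4 of 8 genes with an entry, over the 250 bases before the start of transcription, and is shown because most of the set varied together between libraries while Vegfa did not. The windows were searched on both strands for GNGTGGGNG, a pattern of the kind bound by WT1 and EGR proteins, for the GC box GGGCGG, and for ACGTG, the core of the hypoxia response element. These letters occur in 12.7%, 32.7% and 16.6% of 32851 promoter windows of the same length. Capitals mark matches. The Nphs1 stretch is 29 bases at chr7:30459821-30459849 (plus strand) around a WT1/EGR-like match at bases -227 to -219 from the start. The RefSeq start used for Nphs1 lies inside the annotated gene, and its window overlaps an Nphs1 exon. RefSeq gives 2 starts for Vegfa. The window printed, upstream of the gene at chr17:46032378-46032627 (minus strand), holds GC boxes at -72 to -67 and -62 to -57 and has 59.2% G and C. The window of the other start, at chr17:46025164-46025413 inside the gene and overlapping an exon, holds a GC box at -158 to -153 and a hypoxia core at -211 to -207, and is not printed. The Ptpro window, at chr6:137252049-137252298 (plus strand), holds none of the 3 patterns and has 53.6% G and C. The window of Plce1, also over an exon of its gene and not printed, holds none of them either. A match is a run of letters, and binding was not measured.
Nphs1: gagtacctgtGAGTGGGTGagagggaggt
Vegfa: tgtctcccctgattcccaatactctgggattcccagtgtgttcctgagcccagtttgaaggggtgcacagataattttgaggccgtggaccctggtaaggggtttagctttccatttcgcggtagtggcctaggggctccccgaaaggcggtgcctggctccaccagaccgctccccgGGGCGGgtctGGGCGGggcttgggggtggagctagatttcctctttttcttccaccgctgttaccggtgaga
Ptpro: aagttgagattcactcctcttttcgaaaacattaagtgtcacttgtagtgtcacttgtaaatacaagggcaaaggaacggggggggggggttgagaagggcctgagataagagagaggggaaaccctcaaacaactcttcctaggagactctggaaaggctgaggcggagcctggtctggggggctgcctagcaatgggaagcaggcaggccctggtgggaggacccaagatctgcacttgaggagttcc

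**Figure D1:**
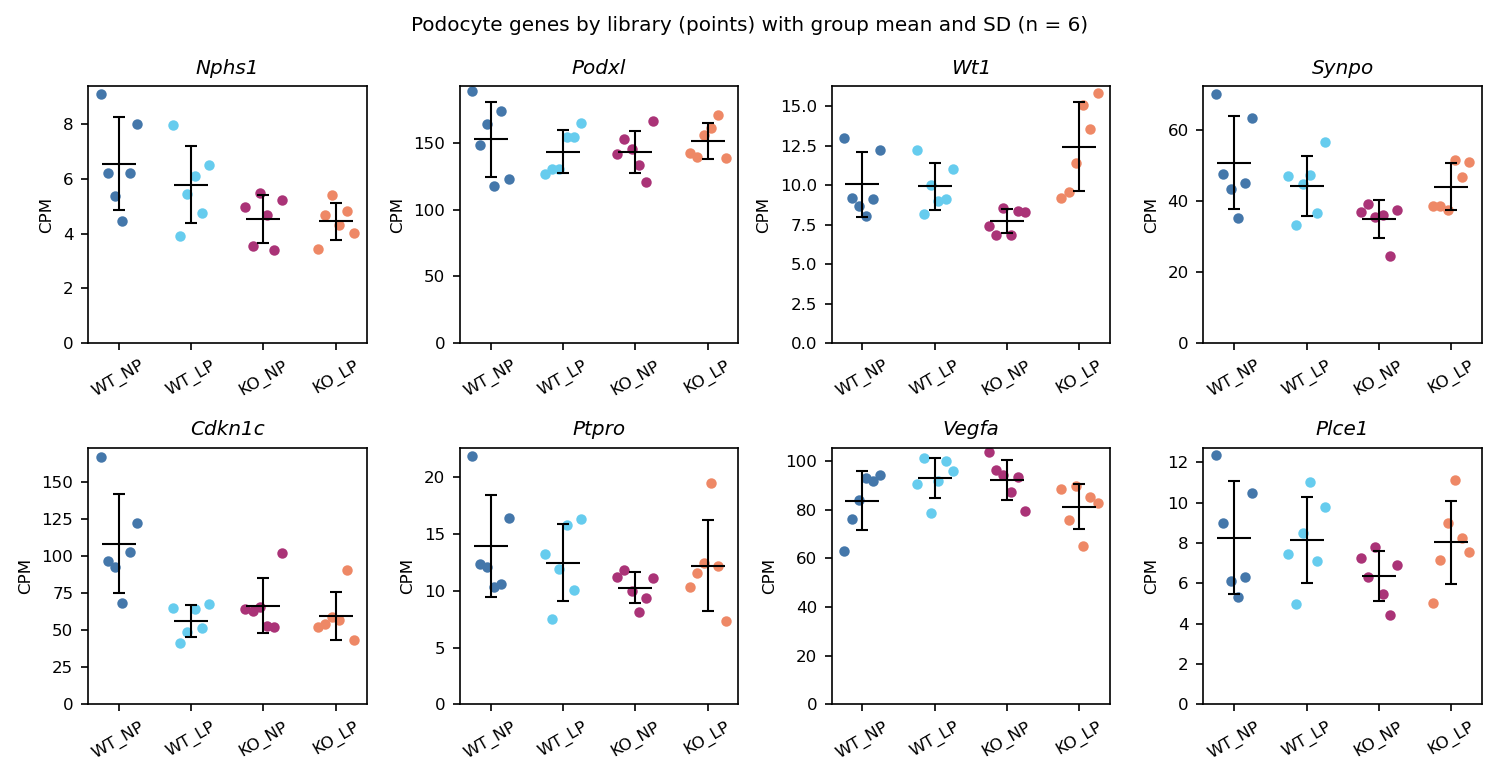
Each panel shows 1 podocyte gene, with CPM on a linear y axis from 0, the 4 groups on the x axis, 1 point per library, and the group mean and SD (n = 6) as bars. Wt1 in KO_LP (9.20 to 15.8 CPM) sits above all of KO_NP (6.83 to 8.54 CPM), and Cdkn1c in WT_NP (68.7 to 167 CPM) sits above all of WT_LP (41.3 to 67.5 CPM).

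Low protein feeding changed 1 of the 8 podocyte genes in KO mice and none in wild type at an adjusted p under 0.05. In the KO, Wt1 rose 1.62-fold, and the share of all tested genes that passed in that comparison was 7.17%, so this count is no result about the set as a whole. In wild type mice 0 of 8 passed by edgeR's quasi-likelihood test, as did 0% of all genes, with 1 of 8 (Cdkn1c) and 580 of 15165 genes at an unadjusted p under 0.05. DESeq2 called 1 of 8 there, Cdkn1c, and 0.12% of all genes. The difference between the diet effects of the KO and of the wild type passed for 0 of 8 and for 0% of all genes by edgeR and for 0 of 8 and 0.635% of all genes by DESeq2. In the edgeR fit 4 of 8 and 2430 of 15165 had an unadjusted p under 0.05. These comparisons share libraries: each diet effect enters the difference between them.

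Genotype compared within NP gave 7 of 8 estimates below 0, with a median log2 fold of -0.41 for the set and -0.02 for all genes. The lower level was not particular to podocyte genes. Of 11 glomerular endothelial markers 10 were negative there (median -0.26), while 6 of 10 proximal tubule markers were positive. By edgeR's quasi-likelihood test 0 of 8 passed, with a background of 0.574%, and 5 of 8 and 1915 of 15165 genes had an unadjusted p under 0.05. DESeq2 called 1 of 8, Cdkn1c, and 1.35% of all genes. Within LP the set's median was -0.01, 0 of 8 passed by edgeR or DESeq2, with a background of 2.93% and 5.79%, and 2 of 8 and 3196 of 15165 genes had an unadjusted p under 0.05 by edgeR. Averaged over both diets, all 8 estimates were below 0 in the KO (-0.45 to -0.0064, median -0.21 against 0.00 for all genes). Those of Podxl, Wt1 and Vegfa were within 1 SE of 0 (-0.0064, -0.02 and -0.03, with SE 0.0754, 0.102 and 0.0675). Among fits that left out 1 library, their highest log2 folds were above 0 (0.03, 0.02 and 0.0017). In that average 1 of 8, Nphs1, passed, with a background of 3.77%. The diet effect averaged over genotypes passed for 0 of 8 by edgeR, with a background of 0.626%. There 2 of 8 (Wt1 and Cdkn1c) and 2489 of 15165 genes had an unadjusted p under 0.05, and DESeq2 called 1 of 8, Cdkn1c, and 1.95% of all genes.

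**Figure D2:**
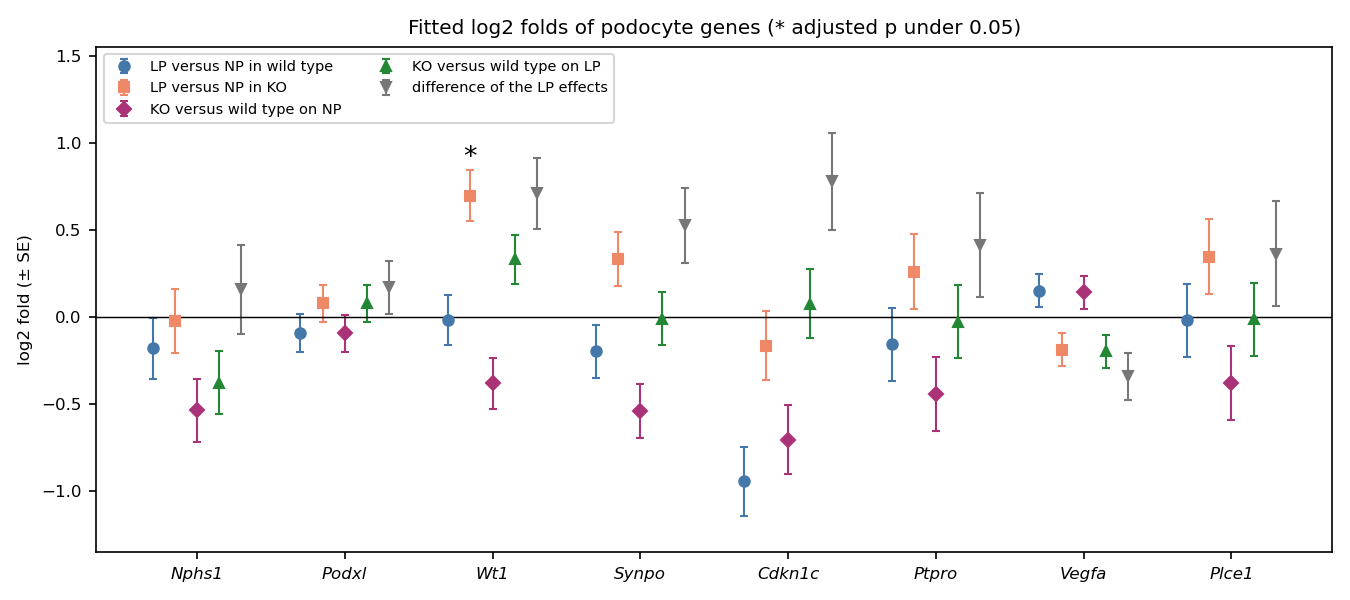
Fitted log2 folds (y axis, with 1 standard error either side) of the 8 podocyte genes (x axis) in 5 comparisons, each with its own marker, from 1 fit over 24 libraries. The asterisk marks the 1 estimate with an adjusted p under 0.05 among those plotted, Wt1 in LP versus NP in KO (0.70), and 7 of 8 diamonds for KO versus wild type on NP lie below 0.

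Nphs1 encodes nephrin, the adhesion protein whose extracellular chains span the slit diaphragm. Its lowest, median and highest levels were 4.45, 6.23 and 9.12 CPM in WT_NP, 3.91, 5.79 and 7.96 in WT_LP, 3.38, 4.82 and 5.48 in KO_NP, and 3.43, 4.49 and 5.43 in KO_LP. The KO libraries crowded into the lower part of the wild type range, all 12 below the mean of the wild type group on the same diet, but the ranges overlapped. Averaged over diets, Nphs1 fell by 0.45 on the log2 scale (SE 0.128) in the KO, with an adjusted p of 0.0448 by edgeR's quasi-likelihood test. The estimates on NP and on LP were -0.53 (SE 0.180, adjusted p = 0.190) and -0.38 (SE 0.180, adjusted p = 0.233). For the diet, the log2 folds were -0.18 (SE 0.175) in wild type and -0.02 (SE 0.185) in the KO.

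The Nphs1 call sat at the threshold. It was kept in 7 of the 24 fits that left out 1 library, with log2 folds from -0.50 to -0.39 and adjusted p from 0.0242 to 0.0847. It was lost without WT_NP 1, 2, 5 or 6, without WT_LP 1, 3, 4 or 6, without KO_NP 1, 2, 4 or 5, or without KO_LP 1, 2, 4, 5 or 6. With the mean of 11 other podocyte genes as a covariate, the estimate was -0.24 (adjusted p = 0.257), and with the mean of the immune markers it was -0.51 (adjusted p = 0.00940). A processed pseudogene, Rps12-ps4, lies inside Nphs1 on the other strand with a mean of 36.0 counts, and the strand setting of the counting is not given in the sources used here.

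Podxl encodes podocalyxin, the sialomucin that coats foot processes and also the lumen of blood vessels. From lowest through median to highest, its libraries read 118, 156 and 189 CPM in WT_NP, 127, 142 and 164 in WT_LP, 120, 143 and 166 in KO_NP, and 138, 149 and 171 in KO_LP. The 4 groups covered the same range, and the log2 folds of the diet were -0.09 (SE 0.107) in wild type and 0.08 (SE 0.107) in the KO. The genotype log2 folds were -0.09 (SE 0.107) on NP and 0.08 (SE 0.107) on LP, and no adjusted p of Podxl by edgeR's quasi-likelihood test was below 0.592.

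Ptpro encodes a receptor-type tyrosine phosphatase of the foot process surface. The lowest, median and highest libraries read 10.3, 12.2 and 21.8 CPM in WT_NP, 7.53, 12.6 and 16.3 in WT_LP, 8.14, 10.5 and 11.8 in KO_NP, and 7.34, 11.8 and 19.4 in KO_LP. All 6 KO_NP libraries were below the WT_NP mean of 13.9 CPM, and WT_NP 1 and KO_LP 4 were the highest libraries of their groups. The log2 fold of KO against wild type on NP was -0.44 (SE 0.212) with an adjusted p of 0.391 by edgeR's quasi-likelihood test, and the diet gave -0.16 (SE 0.208) in wild type and 0.26 (SE 0.214) in the KO.

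Synpo encodes synaptopodin, an actin-binding protein that shapes the stress fibres of foot processes; its gene (ENSMUSG00000043079) is at chr18:60593973-60660142 on the minus strand. Levels (lowest, median and highest) were 35.3, 46.2 and 70.0 CPM in WT_NP, 33.3, 45.8 and 56.7 in WT_LP, 24.5, 36.5 and 39.2 in KO_NP, and 37.3, 42.7 and 51.6 in KO_LP. KO_NP was the lowest group, with 1 library, KO_NP 5, apart at 24.5 CPM. KO against wild type on NP gave a log2 fold of -0.54 (SE 0.153), with all 6 KO libraries below the wild type mean and an adjusted p of 0.110 by edgeR's quasi-likelihood test. Low protein in the KO gave 0.33 (SE 0.153), again with 6 of 6 libraries on 1 side of the KO_NP mean, and an adjusted p of 0.158. Neither passed, and on LP the genotypes differed by -0.01 (SE 0.152).

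Plce1 encodes phospholipase C epsilon, which links Ras-family signals to lipid messengers and is needed for glomerular development. Its lowest, median and highest levels were 5.31, 7.66 and 12.3 CPM in WT_NP, 5.00, 7.97 and 11 in WT_LP, 4.46, 6.61 and 7.83 in KO_NP, and 5.03, 7.91 and 11.1 in KO_LP. The groups overlapped throughout, and KO_NP had the narrowest range. Log2 folds were -0.38 (SE 0.214) for the KO on NP, 0.35 (SE 0.216) for low protein in the KO, and -0.02 (SE 0.209) for low protein in wild type, with adjusted p of 0.480, 0.298 and 1.0 by edgeR's quasi-likelihood test. Of 13 tested phospholipase C relatives and partners, 1 was lower on LP in the KO, Plcd4 (log2 fold -1.04, adjusted p = 0.0436 by edgeR), and none was higher. The background was 7.17% in that comparison, 2.93% for the KO on LP and 3.77% for the KO averaged over diets. Plcd4 did not pass without KO_LP 6 (-0.88, adjusted p = 0.0817). In the KO against wild type, Plcg1 was higher on LP (0.44, adjusted p = 0.0243 by edgeR), in 22 of 24 fits that left out 1 library. Without WT_NP 1, KO_LP 4 and KO_LP 6 it did not pass there (0.34, adjusted p = 0.0671). Averaged over diets Plcg1 was also higher (0.26, adjusted p = 0.0452 by edgeR), in 8 of 24 such fits.

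Wt1 encodes a zinc finger transcription factor that keeps the podocyte programme on in the adult, with Nphs1 and Podxl among its known targets. From lowest through median to highest, its libraries read 8.03, 9.17 and 13 CPM in WT_NP, 8.18, 9.58 and 12.3 in WT_LP, 6.83, 7.86 and 8.54 in KO_NP, and 9.20, 12.5 and 15.8 in KO_LP. The KO groups did not overlap, and KO_LP also reached above both wild type groups. In all tested genes, 3.71% had KO groups that did not overlap. In the KO, low protein raised Wt1 by 0.70 on the log2 scale (SE 0.146), from 7.72 ± 0.779 to 12.5 ± 2.82 CPM (SD, n = 6), with an adjusted p of 0.0156 by edgeR's quasi-likelihood test. In wild type the same contrast gave -0.02 (SE 0.142, adjusted p = 1.0). The difference of those effects was 0.71 (SE 0.204), with an adjusted p of 0.169, so a difference between genotypes did not pass. On NP the KO was below wild type by a log2 fold of -0.38 (SE 0.146, adjusted p = 0.262) and on LP above it by 0.33 (SE 0.142, adjusted p = 0.180), and neither passed.

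The Wt1 rise in the KO was called in each of the 24 fits that left out 1 library, with log2 folds from 0.62 to 0.76 and adjusted p from 0.00701 to 0.0448. Its 3 highest KO_LP libraries were KO_LP 6 at 15.8 CPM, KO_LP 4 at 15.1 and KO_LP 5 at 13.6. KO_LP 6 had at the same time the lowest mean of the 11 other podocyte genes among all 24 libraries, 3.44 log2 CPM, and the largest sum of the 2 tested adrenal cortex markers, 15.6 CPM against at most 3.59 in the other 3 groups. Akr1b7, 1 of those 2 markers, reached 14.8 CPM there and so made up most of the sum. Akr1b7 rose in the same comparison (1.5, adjusted p = 0.0374 by edgeR), and without KO_LP 6 its log2 fold was 0.59 (adjusted p = 0.114). The other tested marker had a negative log2 fold, and only 3 of the 9 listed adrenal cortex genes had a row. The adipocyte markers summed to 473 CPM in KO_LP 6 and to at most 196 CPM in the other 23 libraries. That sum rests on the 2 tested genes of the 7 listed. Without WT_NP 1, KO_LP 4 and KO_LP 6, which an earlier look at these data had set apart, the log2 fold was 0.51 (adjusted p = 0.0794). With the other podocyte genes as a covariate it was 0.62 (adjusted p = 0.0299), and with the immune markers as a covariate 0.55 (adjusted p = 0.101).

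Wt1 is also made outside podocytes, in parietal epithelium of the glomerulus and in mesothelium, and immune markers moved in the same comparison. Of all tested genes 7.17% passed there. All 9 genes of the parietal list had positive log2 folds on LP in the KO (median 0.71), with 1 called, Krt18 (1.13, adjusted p = 0.0373 by edgeR, and 0.0748 without KO_LP 6). Their summed level ran from 142.5 to 191.5 CPM in KO_NP and from 149.9 to 290.1 in KO_LP. Genes of that list, such as Cd44 and Pax8, are not restricted to parietal cells, so the 9 are not a measure of those cells alone. Of the 4 mesothelial markers tested, 0 were called and 3 were positive (median 0.60). Krt19, the one with the smallest p, had a log2 fold of 1.46 with an adjusted p of 0.0666 by edgeR. The summed mesothelial level ran from 104.6 to 146.7 CPM in KO_NP and from 101.0 to 150.6 in KO_LP. The mean log2 CPM of the 4 markers was 2.69 ± 0.551 in KO_NP and 3.22 ± 0.502 in KO_LP (SD, n = 6). All 11 immune markers were positive (median 1.0), with 2 called, Cd74 and Cd3e, and summed to between 471.6 and 598.9 CPM in KO_NP and 555.7 and 1854 CPM in KO_LP. All 10 proximal tubule markers were negative (median -0.35), with Slc34a1 and Slc5a2 called. Over the 24 libraries, with group means subtracted, Wt1 had a Pearson r of 0.71 with the parietal mean and 0.49 with the mesothelial mean. It was 0.44 with the immune mean and -0.64 with the proximal tubule mean. Without WT_NP 1 these were 0.65, 0.41, 0.30 and -0.57. Of these cell types only the immune signal was used as a covariate. The part of the others in the Wt1 values was not tested.

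Cdkn1c encodes p57, an inhibitor of cyclin-dependent kinases that adult podocytes keep at a high level, and is imprinted. The lowest, median and highest libraries read 68.7, 99.9 and 167 CPM in WT_NP, 41.3, 57.8 and 67.5 in WT_LP, 52.0, 63.8 and 102 in KO_NP, and 43.4, 55.7 and 90.4 in KO_LP. WT_NP had the highest median, and its range overlapped those of both KO groups. WT_NP and WT_LP did not overlap, which held for 0.29% of all tested genes. The mean was 108 ± 33.5 CPM in WT_NP and 56.4 ± 10.6 in WT_LP (SD, n = 6), a log2 fold of -0.94 (SE 0.198) and the largest diet estimate of the set in wild type. Its unadjusted p was 8.41e-05, and its adjusted p of 0.131 by edgeR's quasi-likelihood test did not pass.

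That Cdkn1c estimate passed in some fits and not in others. DESeq2 gave -0.94 (adjusted p = 0.00379), and edgeR with the mean of the 11 other podocyte genes as a covariate gave -0.84 (SE 0.133, adjusted p = 0.0254). Each of the 24 fits that left out 1 library stayed above the threshold, with log2 folds from -1.04 to -0.78 and adjusted p from 0.0950 to 0.503. In the KO the diet gave -0.16 (SE 0.199, adjusted p = 0.626). The difference of the diet effects was 0.78 (SE 0.280, adjusted p = 0.224), so no difference between genotypes passed. KO against wild type on NP gave -0.70 (SE 0.198, adjusted p = 0.110), which became -0.86 (adjusted p = 0.0359) without KO_NP 6 and -0.27 (adjusted p = 0.515) with the podocyte covariate.

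Averaged over genotypes, low protein gave a Cdkn1c log2 fold of -0.55 (SE 0.140), with 11 of 12 libraries below the NP mean of their genotype and an adjusted p of 0.0701 by edgeR's quasi-likelihood test. It was -0.63 (adjusted p = 0.0297) without KO_LP 5, -0.47 (adjusted p = 0.0464) without WT_NP 1, and -0.61 (adjusted p = 0.00389) with the podocyte covariate. Of the 6 other cyclin-dependent kinase inhibitors tested, 0 passed in any of the 7 comparisons by edgeR, and Cdkn1a had the smallest p among them for low protein in the KO (0.89, adjusted p = 0.132). Of 15 tested neighbours in the imprinted region and next to it, 0 passed for low protein in wild type, with a median log2 fold of -0.01. In the KO 2 passed, both lower: Slc22a18 (-0.65) and Dhcr7 (-0.40). The background there was 7.17%, so that count is no result about the neighbours. Neither passed with the immune covariate (-0.47 and -0.51, adjusted p of 0.154 and 0.0882 by edgeR). Over all genes that covariate took the calls from 1087 to 56.

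Vegfa encodes the growth factor that podocytes send to the glomerular endothelium, and tubule cells make it too. Levels (lowest, median and highest) were 63.1, 87.8 and 94.2 CPM in WT_NP, 78.6, 93.8 and 101 in WT_LP, 79.4, 93.9 and 104 in KO_NP, and 65.2, 84.0 and 89.7 in KO_LP. WT_LP and KO_NP had the higher means and WT_NP and KO_LP the lower ones, and all ranges overlapped. Log2 folds of the diet were 0.15 (SE 0.0952) in wild type and -0.19 (SE 0.0956) in the KO, and their difference was -0.34 (SE 0.135, adjusted p = 0.243 by edgeR). All 6 KO_LP libraries lay below the means of both KO_NP and WT_LP, with adjusted p of 0.201 and 0.238 by edgeR for these contrasts, and none of the Vegfa contrasts passed.

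Of 12 tested VEGF-family ligands, angiopoietins and their receptors, 0 passed in any comparison by edgeR. Kdr, the main signalling receptor of Vegfa, had a log2 fold of 0.31 for low protein in wild type (adjusted p = 1.0 by edgeR) and -0.41 for the KO on LP (adjusted p = 0.115 by edgeR). A list of 15 genes tied to the response to low oxygen held targets shared with Vegfa and also Hif1a and Epas1. Of the 15, 1 passed for low protein in the KO (background 7.17%), Pfkfb3 (0.47, adjusted p = 0.0436 by edgeR). For the KO on LP 2 passed (background 2.93%), Pfkfb4 (0.70) and Pfkfb3 (0.54), which code for regulators of glycolysis. KO_LP 6, the library high in Akr1b7 and in the sum of the 2 tested adipocyte markers, had a mean of 5.71 log2 CPM over these 15 genes. The other 5 KO_LP libraries had 4.82 to 4.98. Without it Pfkfb3 did not pass in either comparison (0.34, adjusted p = 0.101, and 0.41, adjusted p = 0.0805), while Pfkfb4 did (0.69, adjusted p = 0.0394). Neither passed for the KO on LP with the immune covariate, with adjusted p of 0.108 and 0.0897. Averaged over diets, Pfkfb4 was higher in the KO (0.48, adjusted p = 0.0213 by edgeR). That call was kept in all 24 fits that left out 1 library and with the immune covariate (0.45, adjusted p = 0.0158). The part of KO_LP 6's other tissue markers in these values was not tested.

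Beyond the set, 71 further podocyte genes were tested in lists for the slit diaphragm, cytoskeleton and surface, transcription factors, adhesion and basement membrane, and other podocyte-enriched products. Many of them are also expressed in other kidney cells. In wild type 0 of 71 passed for the diet, with a median log2 fold of -0.02 against -0.01 for all genes. In the KO 4 rose and 1 fell (background 7.17%), with a median of 0.11 against 0.03. These calls came at about the rate of all genes, so their count is no result about the podocyte lists. For the KO against wild type on NP, 58 of 71 were negative with a median of -0.13 against -0.02, and 0 passed (background 0.574%). Lists of other cell types were lower there too, so this was not particular to podocyte genes. Negative were 10 of 11 glomerular endothelial (median -0.26), 10 of 11 immune (-0.49), 7 of 9 parietal (-0.29) and 4 of 4 mesothelial markers (-0.76). Of the 10 proximal tubule markers 6 were positive (median 0.13). On LP, with a background of 2.93%, 1 of the 71 podocyte genes was higher in the KO, Lama5 (0.45), a laminin chain of the basement membrane. Another 2 were lower, Npnt (-0.62) and Slc9a3r2 (-0.33). Averaged over diets 0 were higher and 4 lower (background 3.77%). Lama5 did not pass without KO_LP 6 (0.37, adjusted p = 0.0803 by edgeR), and Slc9a3r2 on LP did not with the immune covariate (-0.23, adjusted p = 0.133).

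In the KO on low protein, the podocyte genes that rose were Inf2, Itga3, Agrn and Smpdl3b. Inf2, a formin that assembles actin and is mutated in hereditary podocyte disease, rose by 0.59 (SE 0.166, adjusted p = 0.0385 by edgeR) with KO groups that did not overlap. Itga3, the integrin alpha chain that anchors podocytes to laminin, rose by 0.53 (adjusted p = 0.0264) and also had separate groups. Agrn, agrin of the glomerular basement membrane, rose by 0.47 (adjusted p = 0.0436), and Smpdl3b, a lipid-modifying enzyme at the podocyte surface, by 1.41 (adjusted p = 0.0333). Bmp7, a growth factor of podocytes and tubules, fell by 0.49 on the log2 scale (adjusted p = 0.0171). Of the 10 further transcription factors beside Wt1, 9 were positive and 0 passed.

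In the same comparison the immune markers were 11 of 11 positive (median 1.0) and the proximal tubule markers 10 of 10 negative. With the immune covariate none of the 5 genes passed, with log2 folds of 0.38 for Inf2, 0.34 for Itga3, 0.16 for Agrn, 0.59 for Smpdl3b and -0.31 for Bmp7 and adjusted p from 0.132 to 0.475 by edgeR. Without WT_NP 1, KO_LP 4 and KO_LP 6 none passed either, with adjusted p from 0.0582 to 0.182. Over all genes, calls for low protein in the KO went from 1087 to 56 with that covariate and to 36 without those libraries. Without KO_LP 6 alone, Inf2 (0.57, adjusted p = 0.0628) and Itga3 (0.47, adjusted p = 0.0547) did not pass.

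Nephronectin, Npnt, a ligand of integrin alpha 8 beta 1 deposited in the basement membrane, had the smallest adjusted p among the podocyte lists. Its mean level was 63.5 ± 7.67 and 67.4 ± 11.8 CPM in WT_NP and WT_LP and 45.6 ± 4.2 and 43.9 ± 7.97 in KO_NP and KO_LP (SD, n = 6), with no overlap between genotypes. Averaged over diets it fell by 0.55 on the log2 scale in the KO (SE 0.0845, adjusted p = 2.81e-04 by edgeR). Nck2, an adaptor that joins nephrin to actin, fell by 0.28, Ddn (dendrin, a partner of nephrin) by 0.50, and Slc9a3r2, a scaffold that tethers podocalyxin, by 0.26, with adjusted p of 0.0244, 0.0419 and 0.0111 by edgeR. Without WT_NP 1, KO_LP 4 and KO_LP 6 the Ddn value was -0.43 (adjusted p = 0.101), and the others passed. The endothelial markers of the glomerulus moved the same way in that average: 11 of 11 were negative with a median of -0.15. With a background of 3.77%, 2 passed, Eng and Cdh5 (adjusted p = 0.0639 by edgeR for Cdh5 without those 3 libraries). Their part in the podocyte values was not tested.

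Libraries differed in the level of these genes within groups. After each group's mean was subtracted, log2 CPM of the 7 genes other than Vegfa was positively correlated over the 24 libraries in all 21 pairs, with Pearson r from 0.17 (Podxl and Wt1) to 0.80 (Synpo and Plce1), a median of 0.65 and a median Spearman rho of 0.63. Without WT_NP 1 all 21 pairs were still positive and the median was 0.56, and without the 2 libraries farthest from the median of the gene on the x axis it was 0.58 with 20 of 21 positive. The points share depth, the dissected piece and the scaling of each library. WT_NP 1 was the highest of its group for all 7 of these genes, and WT_NP 4 the lowest for all 7.

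**Figure D3:**
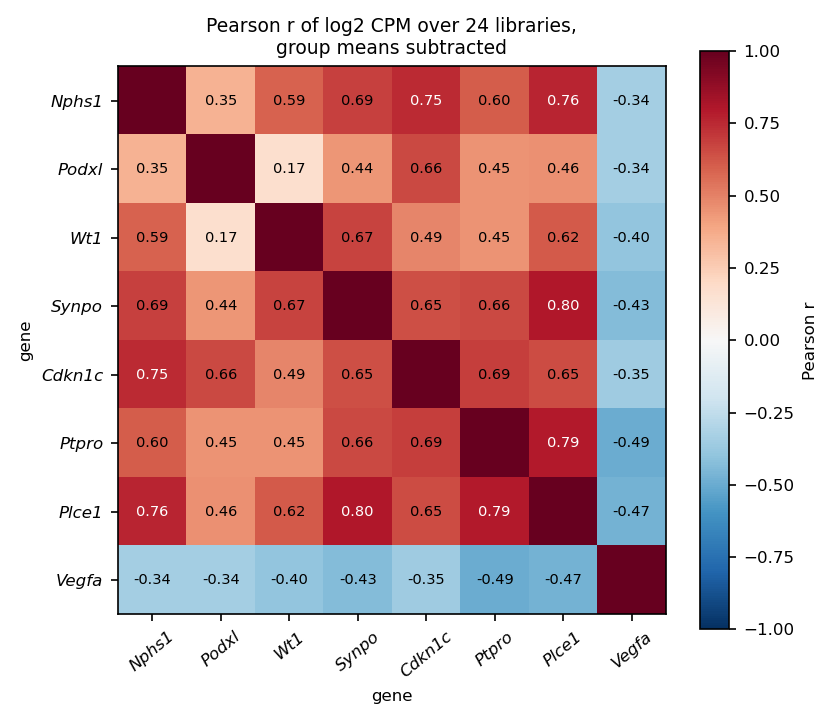
Pearson r of log2 CPM between podocyte genes (both axes) over 24 libraries after each group's mean was subtracted, with red for positive and blue for negative r and the value printed in each cell. Vegfa is negative with all 7 others (-0.49 to -0.34), and the other 21 pairs are positive (0.17 to 0.80).

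Vegfa correlated negatively with each of the 7 other genes (median r = -0.40, median rho = -0.27). Without WT_NP 1, where Vegfa was the lowest of its group, the median was -0.24, and without the 2 farthest libraries it was -0.17 with 1 of 7 positive. The mean of the immune markers was 5.37 log2 CPM in WT_NP 1 and at most 3.93 in the other 5 libraries of its group. Over all 24 libraries Vegfa had r = -0.68 with that mean and r = 0.55 with the mean of the proximal tubule markers, while the 7 others had r from 0.40 (Podxl) to 0.72 (Plce1) with the immune markers. Without WT_NP 1 these values were -0.53 and 0.41 for Vegfa and 0.21 (Podxl) to 0.65 (Plce1) for the others. With the proximal tubule markers the 7 others were not uniform, with r from -0.64 (Wt1) to -0.07 (Cdkn1c). Without WT_NP 1 that range was -0.57 (Wt1) to 0.17 (Cdkn1c). The part of immune and tubule cells in these correlations was not tested.

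With the mean of the 11 other podocyte genes, r was 0.76 for Cdkn1c, 0.72 for Ptpro, 0.64 for Nphs1, 0.62 for Plce1, 0.61 for Synpo, 0.54 for Podxl, 0.46 for Wt1 and -0.25 for Vegfa. Without WT_NP 1 it was -0.08 for Vegfa and 0.38 (Wt1) to 0.72 (Cdkn1c) for the others. That mean was 3.85 ± 0.156 log2 CPM in WT_NP, 3.81 ± 0.170 in WT_LP, 3.62 ± 0.0722 in KO_NP and 3.73 ± 0.208 in KO_LP (SD, n = 6), lowest and least variable in KO_NP. Among the genes other than Vegfa, the parietal mean gave a higher r than the podocyte mean for Plce1, Synpo and Wt1 (each 0.71). The mean of the mesangial markers did so for Plce1 (0.71), Podxl (0.62) and Wt1 (0.61). The glomerular endothelial mean did so for Wt1 (0.66) and Synpo (0.64). Each of these means gave a lower r than the podocyte mean for Cdkn1c, Ptpro and Nphs1. So for Plce1, Synpo, Podxl and Wt1 the correlation was not particular to podocyte markers. Of the 10450 genes that averaged 5 CPM or more, the gene most like Nphs1 over the libraries was Nes (r = 0.83), which codes for nestin, an intermediate filament protein of podocytes. Synpo was most like Ehd2 (r = 0.90), Plce1 like Srgap1 (r = 0.92), Ptpro like Sorbs2 (r = 0.88), Wt1 like Lamc1 (r = 0.83), Podxl like Ehd4 (r = 0.76), and Vegfa like Iqsec2 (r = 0.82). These are the highest of many correlations and are given as a description of the libraries.

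**Figure D4:**
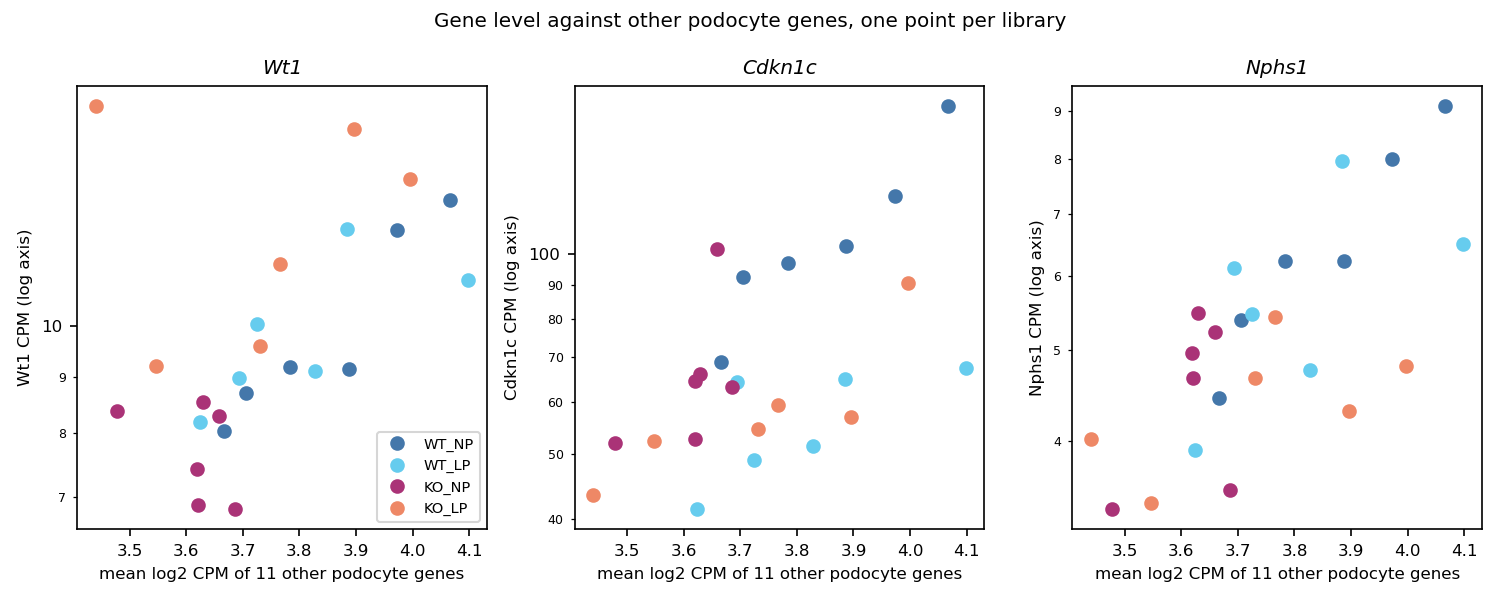
CPM of Wt1, Cdkn1c and Nphs1 (y axes, logarithmic) against the mean log2 CPM of 11 other podocyte genes (x axes), 1 point per library, coloured by group. KO_LP 6 combines the highest Wt1 level (15.8 CPM) with the lowest podocyte mean (3.44), and WT_NP libraries lie above WT_LP libraries of like podocyte mean for Cdkn1c.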

How the data were processed

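Kidney cortex RNA of 24 mice was measured as 3' tags (Lexogen QuantSeq, forward reads of 50 bases per the labels' protocols). The authors deposited raw read counts per gene and normalized values, a signal equal to the count divided by 1 factor per library. GRCm38 and DESeq2 1.22.2 are listed per the submitters' processing notes, while aligner, counter and strand setting are not stated in the sources used here. The tables hold 16921 genes. Symbols came from the deposited table for 14208 and from GENCODE M21 for 2668.

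Counts were tested with edgeR 4.0.16 in R 4.3.3: filterByExpr, TMM scaling, 4 group means, a robust quasi-likelihood fit of 24 libraries with 20 residual degrees of freedom, and two-sided p-values adjusted by Benjamini-Hochberg over 15165 genes. Calls needed an adjusted p under 0.05. The common biological coefficient of variation was 19.6%. CPM used the TMM-scaled library sizes, and log2 CPM a prior count of 2. Groups came from the sample titles, and replicate numbers are names in accession order. One library per mouse makes the p-values measure spread between mice.

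Alternatives were other scaling, filters and library subsets, DESeq2 1.42.0, limma 3.58.1 (voom with quality weights, and log2 of the normalized values plus 1), and covariates for podocyte and immune signal. All 8 members are named in every comparison, together with every called gene of each list, otherwise up to 3 with the smallest p, and the 3 genes most correlated with each member. The members and lists were chosen with earlier results of these data known. The mesothelial list, the correlations without single libraries, the further podocyte lists taken as 1 group, and the alternatives for called list genes were added after the values were seen. Promoters came from RefSeq.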

Additional observations from a re-analysis of the deposited data

Results flagged for a closer look

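Of 32 groups of 6 values (8 genes in 4 groups), 3 held a library apart from the others, where its gap to the nearest one exceeded the 95% critical share of the range (0.625 for 6 values). Chance gives such a value in about 1 in 20 groups. Synpo was at 24.5 CPM in KO_NP 5, below the other 5 libraries of that group, which lay at 35.3 CPM or higher. Cdkn1c was at 102 CPM in KO_NP 6, above the other 5, and at 90.4 CPM in KO_LP 5, where the next library had 59.2 CPM.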

How the results depend on the processing

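Of 1880 estimates under alternatives, 23 lost a call, 11 gained one and 0 of the called ones changed sign, while 110 estimates that were uncalled in both fits did change sign. Leaving out 1 library gave between 0 and 1 called podocyte genes for KO versus wild type on NP (1 without KO_NP 6), between 0 and 2 for the mean diet effect (2 without WT_NP 1 and 1 without KO_LP 5), and between 0 and 1 for the mean genotype effect. DESeq2 called 1 of 8 (Cdkn1c) for low protein in wild type, for KO versus wild type on NP and for the mean diet effect, where edgeR called 0. The podocyte covariate also gave 1 for low protein in wild type and 1 for the mean diet effect, and 0 for the mean genotype effect. The immune covariate gave 0 for low protein in the KO and 1 for the mean diet effect. Limma voom gave 1 for the mean diet effect (Wt1) and 0 for the mean genotype effect, and limma on the normalized values gave 0 for the latter. Without WT_NP 1, KO_LP 4 and KO_LP 6 the counts were 0 for low protein in the KO and 0 for the mean genotype effect. The causes were not tested. Over all genes, leaving out 1 library moved the calls for low protein in the KO between 122 and 2006. No paired analysis was possible because the labels give no replicate numbers that could link mice across groups. At the lowest, a member had 28 counts in a library, Nphs1 in KO_LP 1, which limits its precision.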
